A study of Mus musculus with 5 samples.

Results

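Retinoic acid is made, broken down, carried and sensed by the products of the 9 genes described here, chosen by symbol from the 33636 rows of a gene count table of mouse retina. They were the synthesis enzymes Aldh1a1, Aldh1a2 and Aldh1a3, the breakdown enzymes Cyp26a1 and Cyp26b1, the receptors Rara, Rarb and Rarg, and the cytosolic carrier Crabp1, and each symbol had a single row. Retinal RNA came from wild-type male C57BL/6J mice, an inbred laboratory strain, whose right eye was form-deprived by a head-mounted diffuser goggle for 2 weeks from postnatal day 28, while the left eye stayed uncovered. Retinas were collected at postnatal day 42. The tables held 5 libraries, each from the retina of 1 eye: FDM 1 and FDM 3 from form-deprived eyes (form-deprivation myopia, FDM), and Control 1, Control 2 and Control 3 from uncovered contralateral eyes. FDM 1 and Control 1 were eyes of one mouse and FDM 3 and Control 3 eyes of another, while the FDM library of the mouse of Control 2 was left out by the authors for read duplication. This pairing follows the column name FDM_3, while the sample label numbers that library 2, so the second pair and its refractive error hold only if the column name is right. Every control was thus the fellow eye of a goggled animal, and no eye of an untreated mouse was included. Refractive error at P42 was 0.976 D in FDM 1 against 2.4455 D in Control 1, and 0.2745 D in FDM 3 against 2.465 D in Control 3, a difference of goggled minus uncovered eye of -1.4695 D and -2.1905 D. The comparison asks whether transcripts of this pathway differ in the retina of the eye that became more myopic.

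Vitamin A enters cells as retinol, is oxidized to retinal by retinol dehydrogenases, and is oxidized again to retinoic acid by the ALDH1A enzymes, a step that cannot be undone. CYP26 enzymes hydroxylate retinoic acid and so clear it. The acid binds the nuclear receptors RARA, RARB and RARG, which sit on DNA as partners of the retinoid X receptors. In the developing mouse retina Aldh1a1 marks the dorsal and Aldh1a3 the ventral side, and in chicks retinoic acid of the eye has long been studied as a candidate messenger between retina and the outer coats that set eye size.

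Of the 9 genes, all but Aldh1a3 had promoter windows in the RefSeq table for GRCm38.p6, so Aldh1a3 was not searched. The other 8 had 13 windows of 250 bases before and 50 bases after a start site. The windows were searched on both strands for direct repeats of the retinoic acid half-site (AGGTCA, its variant AGTTCA, the form GGGTCA and the form GGTTCA) with spacers of 5, 2 or 1 bases, named DR5, DR2 and DR1, none of which overlapped another in these windows. A DR5 was found in the windows of Rarb and Cyp26a1, the 2 genes of the group best known to be switched on by retinoic acid itself, and no member window held a DR2 or a DR1. Among all 32851 promoter windows of the table, 0.0974% held a DR5, 0.268% a DR2 and 0.222% a DR1. Both windows are printed 5′ to 3′ on the strand of the gene because they are the 2 member windows with a DR5, which capitals mark. A match of letters is a description and no evidence of binding in these retinas.
Rarb, chr14:16575427-16575726, minus strand: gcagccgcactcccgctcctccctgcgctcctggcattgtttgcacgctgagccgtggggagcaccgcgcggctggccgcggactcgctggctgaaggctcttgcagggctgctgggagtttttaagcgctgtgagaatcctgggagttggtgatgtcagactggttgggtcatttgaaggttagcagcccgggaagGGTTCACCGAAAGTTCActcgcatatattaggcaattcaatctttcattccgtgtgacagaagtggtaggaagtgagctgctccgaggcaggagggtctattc
Cyp26a1, chr19:37697558-37697857, plus strand: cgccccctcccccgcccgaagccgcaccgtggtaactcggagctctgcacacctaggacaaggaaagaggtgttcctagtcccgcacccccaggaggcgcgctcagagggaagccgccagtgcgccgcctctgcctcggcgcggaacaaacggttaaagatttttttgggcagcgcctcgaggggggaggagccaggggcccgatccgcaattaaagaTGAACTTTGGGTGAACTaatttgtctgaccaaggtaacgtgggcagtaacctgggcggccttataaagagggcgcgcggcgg

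Estimated counts summed to between 40599047 and 56534931 per library, and levels are given as counts per 1000000 counts of tested genes (CPM), with the library total scaled by a TMM factor. A value of 3 counts, taken as the floor of detection, corresponded to 0.0526 to 0.0751 CPM, and only counting error enters this floor. All 8 photoreceptor markers were detected, and their summed level of 48779 to 61657 CPM shows the labelled tissue. RNA of other eye tissues was uneven. The 12 markers of the retinal pigment epithelium (RPE) and of pigment summed to 90.7 CPM in FDM 1, 83.1 in FDM 3 and 94.2 in Control 1, but to 304 in Control 2 and 355 in Control 3. The 8 lens markers found in the table summed to 1963 CPM in FDM 3 and to between 2.45 and 18.0 CPM in the other libraries, and 5 skeletal muscle markers summed to 49.95 CPM in Control 3 and to between 6.29 and 7.67 CPM elsewhere.

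None of the retinoic acid genes differed between FDM and control retinas at the threshold of 0.05 on the unadjusted p from edgeR. Of the 9 genes, 8 had more than 10 counts in at least 2 libraries and were tested, and 0 of these 8 were called, against 1.61% of the 17432 genes tested (1.16% lower and 0.453% higher in FDM eyes). The smallest unadjusted p was 0.0567, for Aldh1a3, and every adjusted p was 1.0 (edgeR, Benjamini-Hochberg over all genes). DESeq2 also called 0 of the 8. The log2 fold changes were above 0 for 4 genes and below 0 for 4, with a median of -0.02 against -0.01 over all genes tested. The 95% interval of the log2 fold change lay inside a 2-fold change either way for 7 of the 8 genes. It lay inside a 1.5-fold change for 6. With 2 and 3 libraries, the data are compatible with any difference inside these intervals. Both FDM libraries lay below all 3 controls for 1 of the 8 genes, Aldh1a3, an arrangement seen in 6.67% of all genes tested, and above all controls for 0 of the 8, seen in 3.97%.

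**Figure D1:**
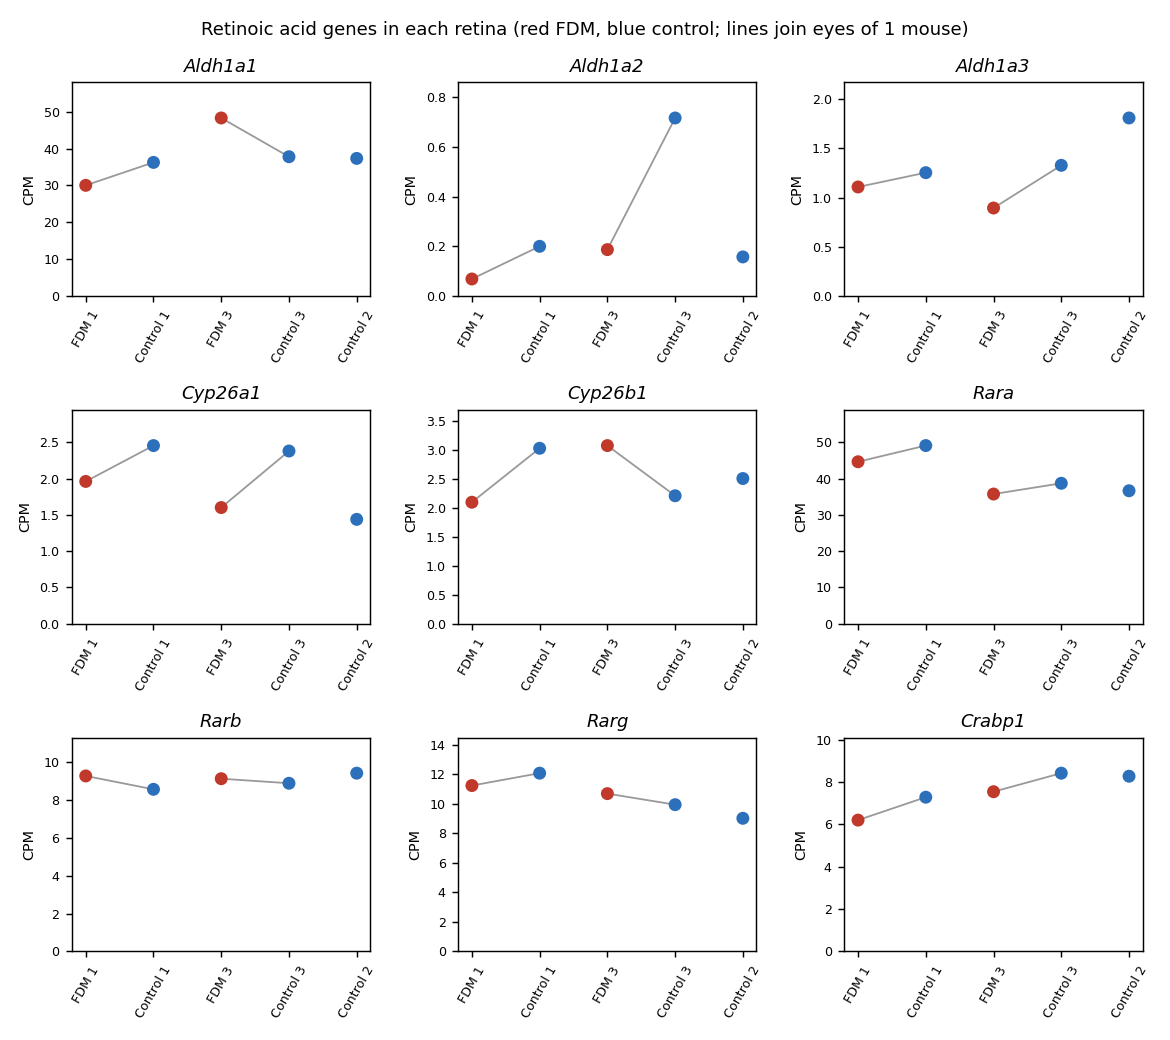
Level of the 9 retinoic acid genes in CPM (linear axes from 0) in each of the 5 libraries, with FDM in red, control in blue and grey lines joining the eyes of 1 mouse. The groups overlap in all panels but that of Aldh1a3, where FDM 1 and FDM 3 lie below the 3 controls.

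Aldh1a1 was the main synthesis enzyme of these retinas by transcript level. It stood at 7.68 CPM per kb of exon over the 5 libraries, against 0.277 for Aldh1a3 and 0.118 for Aldh1a2. The kb of exon count the union of exons of all annotated transcripts of a gene. Aldh1a1 (chromosome 19 of GRCm38, 20492715 to 20643465) had 1302 and 2322 estimated counts in FDM 1 and FDM 3 against 1447, 2128 and 1794 in Controls 1, 2 and 3. In CPM these were 30.03, 48.3, 36.2, 37.3 and 37.8, so that the 3 controls lay close together and the 2 FDM libraries on either side of them. The group levels were 39.2 ± 12.9 CPM (SD, n = 2) for FDM and 37.1 ± 0.790 (SD, n = 3) for control. The log2 fold change was 0.08 (95% interval -0.34 to 0.50, unadjusted p = 0.676 from edgeR). Without FDM 1 it was 0.38 (unadjusted p = 0.0242 from edgeR) and without FDM 3 it was -0.31 (unadjusted p = 0.0635). Aldh1a1 was highest in FDM 3, the library with the lens transcripts, and the lens of mice is known to make this enzyme. The part of lens RNA in this value was not tested. Its tandem relative Aldh1a7, with which it shares 5.70% of its 31-base transcript words, had 146, 230, 137, 261 and 240 counts by library and a log2 fold change of -0.10 (unadjusted p = 0.673 from edgeR). Reads of the shared stretches could be split between both genes.

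Aldh1a3 (chromosome 7, 66390890 to 66427517) was the member nearest to the threshold. It had 48 and 43 counts in FDM 1 and FDM 3 against 50, 103 and 63 in Controls 1, 2 and 3, or 1.11, 0.894, 1.25, 1.81 and 1.33 CPM. In CPM both FDM libraries were the lowest, but Control 1 lay nearer to FDM 1 than to Control 2. In the authors' normalized counts the FDM libraries were also the lowest, at 53.4 and 42.9 in FDM 1 and FDM 3. Controls 1, 2 and 3 stood there at 64.6, 71.2 and 63.5, with Control 1 nearer to Control 2 than to FDM 1. The level was 1.001 ± 0.151 CPM (SD, n = 2) for FDM and 1.46 ± 0.301 (SD, n = 3) for control. FDM and control eyes differed by a log2 fold change of -0.56 (standard error 0.25, 95% interval -1.13 to 0.02, unadjusted p = 0.0567, adjusted p = 1.0 from edgeR), equal to 0.680 of the control level. It passed the unadjusted threshold when every gene with 1 count or more was fitted (unadjusted p = 0.0488 from edgeR), without Control 1 (-0.65, unadjusted p = 0.0367) and with the label numbers as a block (-0.61, unadjusted p = 0.0337). It did not pass with the mouse as a block (-0.38, unadjusted p = 0.148), without Control 2 (-0.36, unadjusted p = 0.168) or in DESeq2 (unadjusted p = 0.125). With the authors' gene-specific factors as offsets Aldh1a3 stood at -0.47 and did not pass either (unadjusted p = 0.0639 from edgeR).

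Aldh1a2, which makes retinoic acid mostly in the tissues around the retina, was close to the limit of detection. Its gene (chromosome 9, 71215789 to 71296243) had 3 and 9 counts in FDM 1 and FDM 3 against 8, 9 and 34 in Controls 1, 2 and 3. Only Control 3 exceeded 10 counts, so the gene did not pass the count filter. In the edgeR fit of every gene with 1 count or more the log2 fold change was -1.44 (unadjusted p = 0.0752, adjusted p = 1.0), and Control 3 was the highest library. Control 3 also had the most counts of the connective tissue genes Dcn, with 216 against 7 to 54 elsewhere, and Lum, with 28 against 0 to 8. It had the most of the muscle gene Myl1, with 590 against 7 to 28. Of the 5 tested connective tissue markers, 4 were highest in Control 3. Pdgfra was highest in Control 2, at 11.3 CPM against 9.14 in Control 3. The list of 6 summed to 36.9 CPM in Control 3 and 26.2 in Control 2. The part of connective tissue or muscle RNA in the Aldh1a2 counts was not tested.

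The breakdown enzymes were both expressed at low levels, Cyp26a1 at 0.992 and Cyp26b1 at 0.483 CPM per kb of exon. Cyp26a1 (chromosome 19, 37697798 to 37701536), whose promoter holds a DR5, had 85 and 77 counts in FDM 1 and FDM 3 against 98, 82 and 113 in Controls 1, 2 and 3. In CPM these were 1.96, 1.601, 2.45, 1.44 and 2.38. Control 2 was the lowest library of all. With the pairs as the column names give them, each FDM eye was below its fellow eye, whereas FDM 3 lay above Control 2, its partner by the label number. Without pairing, the log2 fold change was -0.23 (95% interval -0.85 to 0.40, unadjusted p = 0.428 from edgeR). It was -0.38 without FDM 1, -0.09 without FDM 3, -0.09 without Control 1, -0.43 without Control 2 and -0.11 without Control 3, where the smallest unadjusted p from edgeR was 0.0565, without Control 2. A block for mouse gave -0.45 in edgeR (unadjusted p = 0.0444, standard error 0.19, adjusted p = 0.683), and Cyp26a1 was the only one of the 8 genes to pass the unadjusted threshold in that fit, which called 7.23% of all genes, 3.67% as lower in FDM eyes, and leaves 1 residual degree of freedom. The call was lost when the authors' gene-specific factors were used in the same block fit (-0.44, unadjusted p = 0.0638 from edgeR), and with the label numbers as the block Cyp26a1 stood at -0.09 (unadjusted p = 0.722 from edgeR).

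Cyp26b1 (chromosome 6, 84571414 to 84593908) did not follow Cyp26a1. It had 91, 148, 121, 143 and 105 counts in FDM 1, FDM 3, Control 1, Control 2 and Control 3, or 2.10, 3.08, 3.03, 2.51 and 2.21 CPM, with the FDM libraries at both ends of the range. For the group difference, the log2 fold change was 0.01 (95% interval -0.52 to 0.53, unadjusted p = 0.972 from edgeR), and its sign varied with the processing.

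**Figure D2:**
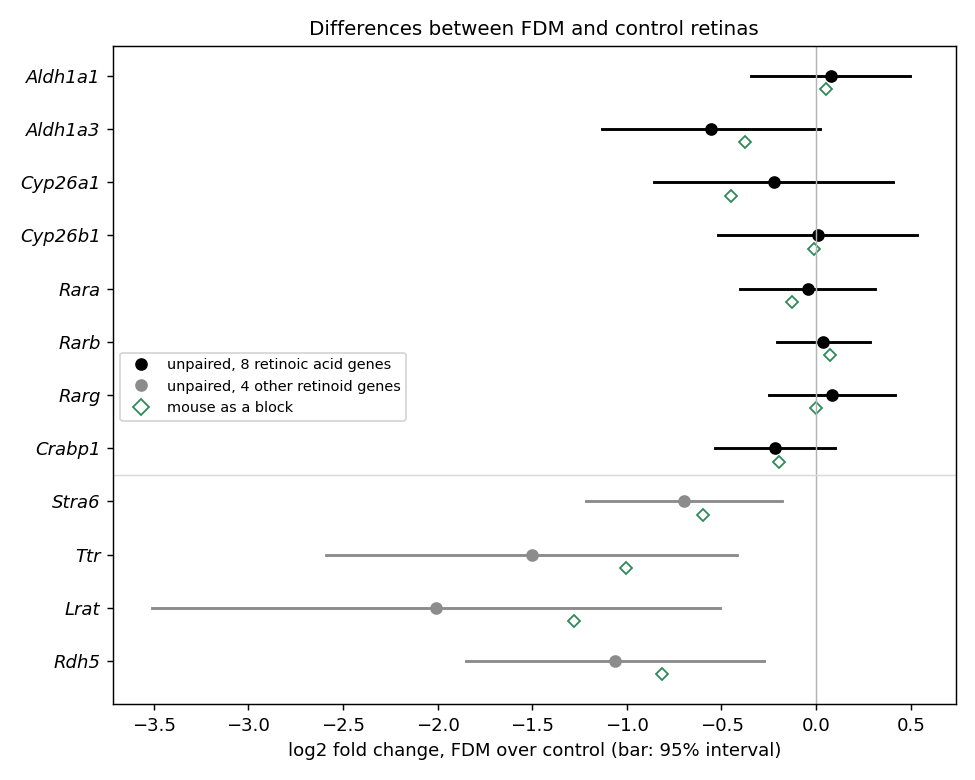
Log2 fold change of FDM over control (horizontal axis) with its 95% interval in edgeR for the 8 tested retinoic acid genes (black) and 4 other retinoid genes (grey), and the estimate with the mouse as a block (green diamonds). All 8 black intervals include 0, while the 4 grey ones, from Stra6 to Rdh5, lie below it.

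Among the receptors Rara was the most abundant, at 9.38 CPM per kb of exon, followed by Rarg at 2.49 and Rarb at 1.72. Rara (chromosome 11, 98927818 to 98974942) had 1934 and 1718 counts in FDM 1 and FDM 3 against 1959, 2088 and 1837 in Controls 1, 2 and 3. Its CPM were 44.6, 35.7, 49.1, 36.6 and 38.7. The eyes of the mouse of FDM 1 and Control 1 were the 2 highest libraries, and the groups overlapped. The log2 fold change was -0.04 (95% interval -0.40 to 0.31, unadjusted p = 0.776 from edgeR) and -0.13 with the mouse as a block (standard error 0.06, unadjusted p = 0.0683). With the authors' factors as offsets Rara stood at -0.15 (unadjusted p = 0.312 from edgeR), and leaving out 1 library gave values from -0.21, without FDM 1, to 0.11, without FDM 3.

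Rarb (chromosome 14, 16430839 to 16819156), the receptor whose promoter holds the other DR5, was the most even of the 9 genes. It had 402, 439, 342, 537 and 422 counts in FDM 1, FDM 3, Control 1, Control 2 and Control 3, or 9.27, 9.13, 8.57, 9.42 and 8.89 CPM. Its level was 9.20 ± 0.103 CPM (SD, n = 2) for FDM and 8.96 ± 0.431 (SD, n = 3) for control. For the group difference, the log2 fold change was 0.04 (95% interval -0.21 to 0.28, unadjusted p = 0.728 from edgeR), the narrowest interval of the group. Of the 31-base words in Rarb transcripts, 32.1% also occur in transcripts of Top2b, which overlaps Rarb on the opposite strand, and the kit does not mark strand. Top2b was far more abundant, at 191 ± 5.10 CPM (SD, n = 2) for FDM and 207 ± 38.5 (SD, n = 3) for control, so reads of the overlap cannot be told apart.

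Rarg (chromosome 15, 102234938 to 102257517) had nearly the same number of counts in every library, with 487 and 514 in FDM 1 and FDM 3 against 482, 514 and 472 in Controls 1, 2 and 3. In CPM, which takes account of library size, these were 11.2, 10.7, 12.1, 9.02 and 9.94, and the groups overlapped. The log2 fold change was 0.09 (95% interval -0.25 to 0.42, unadjusted p = 0.564 from edgeR). The authors' normalized counts spread it much further, to 506 and 682 in FDM 1 and FDM 3 against 533, 310 and 513 in Controls 1, 2 and 3. This came from the factor by which the authors divided each gene, which relative to the library median was 1.04, 0.736, 1.05, 1.36 and 0.911 for Rarg in the same order. The highest factor of Rarg was 1.85 times its lowest, which exceeded 98.5% of the 17321 genes with a factor in all libraries, whose median was 1.06. With these factors as offsets, the log2 fold change of Rarg was 0.40 (unadjusted p = 0.151 from edgeR), against 0.09 without them. It was still short of the threshold. The annotation lists 7 Rarg transcripts of 111 to 2953 bases. Aldh1a3, at 1.32 times, and Rara, at 1.196 times, had the next widest factors of the 9 genes, with Control 2 apart from the other libraries in each.

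**Figure D3:**
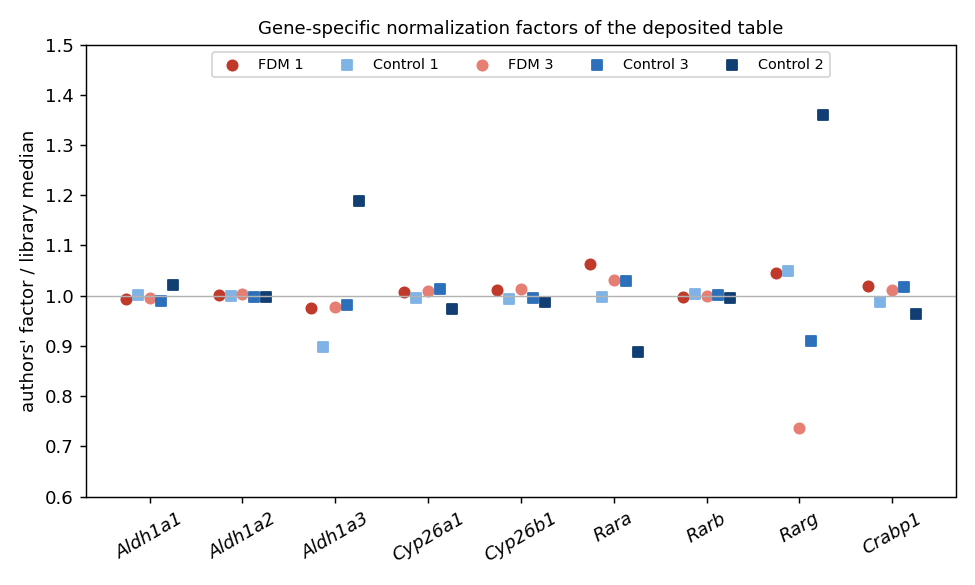
Factor by which the authors normalized each of the 9 genes (vertical axis, divided by the median factor of the library) in each of the 5 libraries, with FDM as circles and control as squares. Rarg runs from 0.736 in FDM 3 to 1.36 in Control 2, while Rarb and Aldh1a2 stay near 1.

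Crabp1, which encodes a small protein that holds retinoic acid in the cytosol, stood at 9.41 CPM per kb of exon, near the value of Rara. The exon union is 802 bases for Crabp1 and 4365 for Rara, whose longest transcript has 3384, so this likeness depends on the length used. Crabp1 (chromosome 9, 54764748 to 54773110) had 269 and 363 counts in FDM 1 and FDM 3 against 291, 472 and 400 in Controls 1, 2 and 3, or 6.21, 7.55, 7.29, 8.28 and 8.42 CPM. FDM 1 was the lowest, and Control 1 lay below FDM 3. The level was 6.88 ± 0.949 CPM (SD, n = 2) for FDM and 7.997 ± 0.618 (SD, n = 3) for control. For the group difference, the log2 fold change was -0.22 (95% interval -0.54 to 0.10, unadjusted p = 0.150 from edgeR) and -0.19 with the mouse as a block (unadjusted p = 0.112). Without FDM 1 Crabp1 stood at -0.08 (unadjusted p = 0.664 from edgeR) and without FDM 3 at -0.37 (unadjusted p = 0.0921 from edgeR). The 6 amacrine markers, of a cell class in which Crabp1 is known to be expressed, differed little, with a median log2 fold change of -0.01 and 0 of 6 called.

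Within the 2 same-animal pairs, 4 of the 8 tested genes were lower in the FDM eye of both mice, namely Aldh1a3, Cyp26a1, Rara and Crabp1, against 30.3% of all genes tested. Rarb was higher in both, as were 24.7% of all genes, and 3 genes went opposite ways. A single pair has no replicate, so these values carry no test of their own. Cyp26a1 differed by -0.32 on the log2 scale between the eyes of the first mouse and by -0.57 between those of the third. Aldh1a3 differed by -0.18 and -0.57 and Crabp1 by -0.23 and -0.16. The opposite pairs were those of Aldh1a1, at -0.27 and 0.35, of Cyp26b1, at -0.53 and 0.48, and of Rarg, at -0.10 and 0.10. The third mouse, with the larger refractive shift, had the larger difference for 2 of the 4 genes lower in both.

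The dorsal enzyme Aldh1a1 and the ventral enzyme Aldh1a3 were set beside Tbx5 and Vax2, transcription factors of the dorsal and the ventral retina. Tbx5 stood at 4.08 and 6.63 CPM in FDM 1 and FDM 3 against 5.69, 2.46 and 3.31 in Controls 1, 2 and 3. Vax2 ran the other way, at 30.6, 21.0, 26.2, 36.2 and 31.99 CPM. FDM 3 thus held the most Tbx5 and Aldh1a1 and the least Vax2 and Aldh1a3, and Control 2 the least Tbx5 and the most Vax2 and Aldh1a3. The other position markers shared this order only in part. Of the 5 dorsal markers, FDM 3 was highest for 2, Tbx5 and Efnb2, while Control 1 was highest for Tbx2 and Opn1mw and FDM 1 for Tbx3, and Control 2 was lowest for all 5. Of the 3 tested ventral markers, FDM 3 was lowest for Vax2 and Opn1sw, and for Ephb2 Control 2 was lowest, at 40.80 CPM against 40.86 in FDM 3. The ratio of Aldh1a1 to Aldh1a3 in CPM, compared only between libraries, was 54.0 in FDM 3 and 20.7 in Control 2, with FDM 1, Control 3 and Control 1 between at 27.1, 28.5 and 28.9. The ratio of Tbx5 to Vax2 was likewise highest in FDM 3, at 0.316, and lowest in Control 2, at 0.0679. Between FDM and control eyes neither Tbx5 (log2 fold change 0.50, unadjusted p = 0.202 from edgeR) nor Vax2 (-0.29, unadjusted p = 0.164) passed the threshold, and 0 of the 5 dorsal and 0 of the 3 tested ventral markers were called. The part of retinal position in the Aldh1a values was not tested. In a bulk retina, fewer cells of a type and less RNA per cell cannot be told apart.

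**Figure D4:**
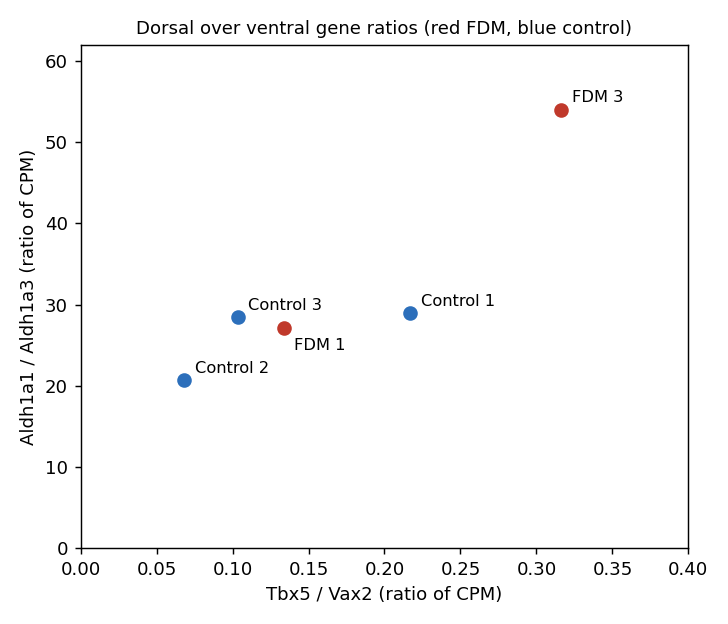
Ratio of Aldh1a1 to Aldh1a3 (vertical axis) against the ratio of Tbx5 to Vax2 (horizontal axis), both ratios of CPM without unit, 1 point per library with FDM in red and control in blue. FDM 3 has the highest and Control 2 the lowest value of both ratios, with the other 3 libraries between.

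By the root-mean-square difference of log2 CPM, centred over the 5 libraries, the genes whose pattern was nearest to that of Aldh1a3 among 14788 genes were Col5a2 (0.05), Gm47356 (0.10) and Sfmbt2 (0.11). Col5a2 stood at 1.38, 1.06, 1.43, 2.23 and 1.56 CPM in FDM 1, FDM 3, Control 1, Control 2 and Control 3. None of these 3 genes was called (unadjusted p of 0.0867, 0.0726 and 0.154 from edgeR). Vax2, looked up after its values had been seen, ranked 30 with a difference of 0.16. Rpe65 and Tbx5, looked up with it, ranked 14722 (0.89) and 14707 (0.82).

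Around the 9 genes, 4 further retinoid genes were called lower in FDM eyes. Of these, 3 are also on the list of RPE and pigment markers. Of 48 further retinoid genes in 5 lists, 43 were tested, and 4 were lower and 0 higher at the unadjusted threshold in edgeR, or 9.3% against 1.61% of all genes. None (0) passed adjustment. The lists were chosen with earlier results of these data known, so this share is a description and no test. The 5 lists share 3 genes with the list of RPE and pigment markers, and all 3 were called. Outside that list only Stra6 was called. Of the 6 tested genes for retinol uptake, binding and storage, 3 were lower, Stra6, Ttr and Lrat. Stra6 is the membrane receptor through which retinol is taken up, Ttr carries the plasma retinol-binding protein and Lrat esterifies retinol. The median log2 fold change of this list was -0.53. Among 14 tested retinol and retinal oxidoreductases only Rdh5 was lower, and the median was -0.08. None (0) of 5 other enzymes and carriers, including Cyp26c1 and Crabp2, and none (0) of 11 retinoid X receptors and cofactors passed, with medians of -0.10 and 0.00. Of 10 tested genes known to respond to retinoic acid, 1 was called, and this was Stra6 again.

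Stra6 had 367 and 376 counts in FDM 1 and FDM 3 against 371, 823 and 752 in Controls 1, 2 and 3, or 8.47, 7.82, 9.29, 14.4 and 15.8 CPM. Stra6 was lower by a log2 fold change of -0.70 (standard error of 0.22, an unadjusted p = 0.0150, adjusted p = 1.0 from edgeR). Lrat had 113, 132, 121, 1006 and 546 counts by library and a log2 fold change of -2.01 (unadjusted p = 0.0156 from edgeR). Ttr had 1387, 1210, 1348, 6615 and 4400 counts and -1.50 (unadjusted p = 0.0134). For Rdh5 the log2 fold change was -1.06 (unadjusted p = 0.0150). In all 4 genes Control 1 lay beside the FDM libraries and the 2 other controls stood far above. Lrat, Ttr and Rdh5 are also on the RPE list, in which 6 of 12 markers were lower and Rpe65, the isomerase that defines the RPE, stood at 5.49 and 4.51 CPM in FDM 1 and FDM 3 against 5.36, 27.9 and 23.6 in Controls 1, 2 and 3. The part of RPE RNA in these 4 genes was not tested. Between the eyes of the first mouse, which held like amounts of Rpe65 (log2 ratio 0.03), Stra6 differed by -0.13, Ttr by -0.08, Lrat by -0.22 and Rdh5 by -0.06 on the log2 scale. Between the eyes of the third mouse, in which Rpe65 differed by -2.39, the same genes differed by -1.02, -1.88, -2.07 and -1.48. The number of these genes called was 1, Lrat, without FDM 3, and 2, Lrat and Ttr, without Control 3. The log2 fold changes of the others were then -1.34 for Ttr, -0.93 for Rdh5 and -0.64 for Stra6 without FDM 3, and -0.90 for Rdh5 and -0.54 for Stra6 without Control 3, with unadjusted p from 0.0522 to 0.0600 in edgeR.

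**Figure D5:**
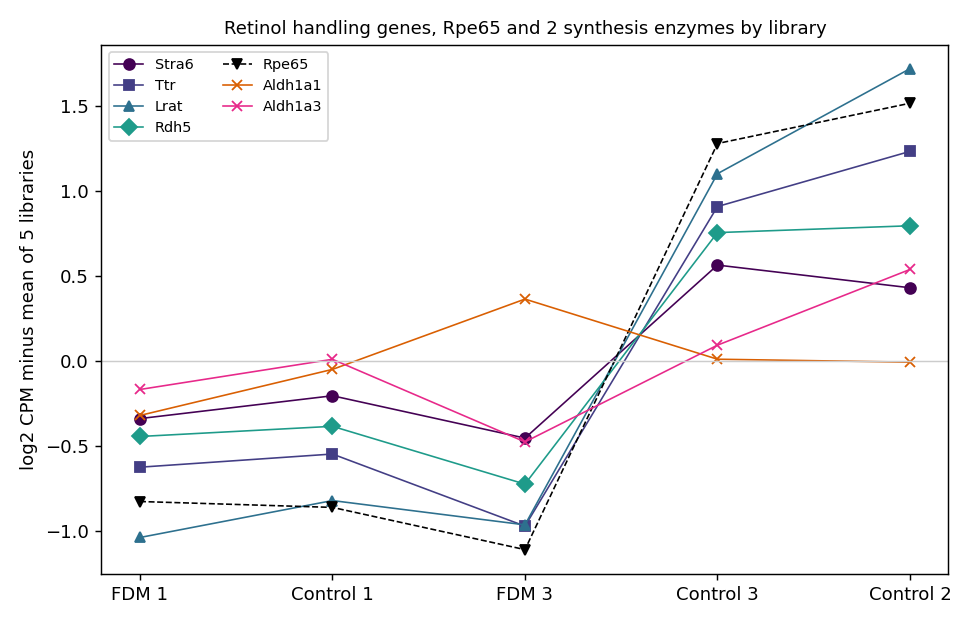
Log2 CPM minus the mean of the 5 libraries (vertical axis) for 4 retinol handling genes, the RPE marker Rpe65 (dashed) and the synthesis enzymes Aldh1a1 and Aldh1a3, by library; lines only join points of 1 gene. The 4 genes and Rpe65 lie below 0 in FDM 1, Control 1 and FDM 3 and above 0 in Control 3 and Control 2.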

How the data were processed

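Poly-A RNA of 5 retinas was sequenced by the authors, who trimmed reads with Trimmomatic 0.39, quantified transcripts with Salmon 1.10.1 and summed them to genes on GRCm38. The deposited estimated counts are whole numbers. The authors also deposited a normalized signal, in which the dividing factor differs by gene and library.

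Groups came from the sample titles. The second FDM column is named FDM_3, as in the supplementary tables of the paper, while its title is numbered 2. Pairing by animal follows the paper's number, and the label numbers were tried as an alternative. Deviations from group means correlated across genes at 0.252 for FDM 1 with Control 1, and for FDM 3 at 0.134 with Control 3 and 0.143 with Control 2. With 2 FDM libraries their deviations mirror each other, so these values are not independent and do not tell which pairing is right.

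The filter kept 17432 of 33636 genes, those above 10 counts in 2 or more libraries, which were tested with edgeR 4.0.16 (TMM, quasi-likelihood, no covariate) in R 4.3.3. Intervals are from its standard error. CPM use the total of these genes and the TMM factor. Alternatives used DESeq2 1.42.0, limma 3.58.1, other factors and filters, blocks and each library left out. For offsets, 157 factors of zero counts were set to the library median. Scripts were tested on simulated data. Coordinates, exon lengths and transcripts are from GENCODE M21, promoters from RefSeq. Named genes were the members, the called genes of each pathway list, the defining markers, and the 3 patterns nearest to the member with the smallest p. One gene of the lists is not reported here. Members and lists were chosen with earlier results of these data known.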

Additional observations from a re-analysis of the deposited data

How the results depend on the processing

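Of the 8 tested members, 0 passed adjustment in any of the 17 alternatives. The number under the unadjusted threshold moved from 0 to 1 when every gene with 1 count or more was fitted (Aldh1a3), with the replicate block by mouse (Cyp26a1) and with the block by label number (Aldh1a3), and was 0 to 1 over the fits that omit one library (Aldh1a1 without FDM 1, Aldh1a3 without Control 1). Where 1 FDM library remained, it was assumed to vary like the controls. Rarb, Rarg, Crabp1, Cyp26a1 and Aldh1a3 kept their sign in all 17. Cyp26b1, at 0.01, turned to -0.0130 with the authors' factors as offsets, -0.0316 and -0.0319 in limma at pseudocounts 1 and 0.1, -0.0116 and -0.10 in the block by mouse and by label number, -0.0307 in the block with offsets, chosen after seeing the data, and ranged from -0.30 to 0.25 with a library left out. Aldh1a1 ranged from -0.31 to 0.38, Rara from -0.21 to 0.11, Rarb from 0.01 to 0.09 and Rarg from 0.01 to 0.21 in these fits. The cause was not tested. Of the further retinoid genes, 4 were called, 7 with the mouse block, adding Ep300, Fabp5 and Rdh12, and 1 to 6 with a library left out. Over all genes, 281 were called and 0 after adjustment. The counts were 173 and 3 in DESeq2, 498 in the fit of all genes with a count, 1261 and 54 with the mouse block, 439 and 128 with the label block, and 1273 and 80 with the block and offsets. They ranged from 146 to 944, and from 0 to 16 after adjustment, with a library left out. The number of members lower in the FDM eye of both pairs was 4 in CPM and in the authors' normalized counts, and 3 with the label pairing. Aldh1a2, Aldh1a3, Cyp26a1 and Cyp26b1 had at most 148 counts in a library, which limits what could be seen for them.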

Other observations

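Fabp5, a fatty acid carrier that can also take up retinoic acid, had 728 and 1904 counts in FDM 1 and FDM 3 against 673, 1058 and 939 in Controls 1, 2 and 3. In CPM it stood at 39.6 in FDM 3 and between 16.8 and 19.8 in the other 4 libraries, and its log2 fold change of 0.62 did not pass the threshold (unadjusted p = 0.0808, adjusted p = 1.0 from edgeR). With the mouse as a block it did (unadjusted p = 0.0141, adjusted p = 0.608 from edgeR), although the eyes of the first mouse differed by -0.01 and those of the third by 1.002 on the log2 scale. FDM 3 was also the library with the lens transcripts, whose part in this value was not tested.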
